A study of Mus musculus with 2 samples.

Results

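Btg1, Btg2, Tob1, Slfn2, Tsc1, Tsc22d3, Foxj1 and Cdkn1b are 8 genes whose products have been linked to the resting state of lymphocytes. They were picked by name as T cell quiescence factors, 8 of 21827 protein-coding genes in GENCODE M21. The rule uses no measured value, although earlier results of these data were known when the genes were chosen. Each was described through the open chromatin in its locus, defined as the gene with 25 kb of flank on each side. The measurements came from DNase-seq, in which the nuclease DNase I cuts accessible DNA in nuclei, so that sequenced cut ends mark open sites. The samples formed 1 group of 2 libraries, called replicates 2 and 3 as in the labels, from resting naive T cells of the CD8-positive, alpha-beta type of male B6CASTF1/J mice 2 months of age. B6CASTF1/J mice are hybrids of 2 inbred strains, so each cell carries a B6-type and a CAST-type copy of every autosome. The donor label was the same for both libraries and the biosample label was not, so 2 separate animals are not established, and SDs between them may be technical.

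A naive T cell can stay out of the cell cycle for months and keeps the ability to divide quickly once it meets antigen. This resting state is actively kept, by proteins that shorten messenger RNAs, restrain growth signalling through mTORC1, block cyclin-dependent kinases or limit inflammatory transcription. DNase-seq reads none of these activities. It shows where the DNA of their genes was accessible. Footprints, short stretches called as protected from cutting inside accessible DNA, mark where something may have covered the DNA.

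The libraries differed widely in yield, and replicate 3 stood apart at T cell genes. Replicate 2 had 38223 peaks in its shorter, stricter list and replicate 3 had 17061, with 146244 and 29967 footprints. The signal of each peak moved in whole steps, which would correspond to 1.34e+08 tags in replicate 2 and 2.21e+07 in replicate 3 if the values are scaled to 1000000 tags, which no label says. A site without a peak in replicate 3 was not shown to be closed, and the part of depth in such absences was not tested. Of 6 T cell markers, 6 had a stricter promoter peak in replicate 2 and 1, Cd28, had one in both libraries. In the permissive list of replicate 3, Cd3e and Lck had one as well, and Cd3d, Cd3g and Cd247 did not. Of 5 markers of naive cells, 3 had a stricter promoter peak in replicate 2 and none had one in replicate 3, where Lef1 had a permissive one. Among them Ccr7, the receptor that brings naive cells into lymph nodes, had a signal of 6.54 in replicate 2 and no promoter peak in either list of replicate 3. Of the 200 promoter peaks of replicate 2 closest to it in signal, 98.5% were seen in replicate 3. Cd8b1 and Runx3 had promoter peaks in both libraries, and Cd8a had none in the stricter list of either. In neither stricter list did the 4 B cell, 3 erythroid or 2 CD4 markers have a promoter peak. Replicate 2 had one at 1 of 4 myeloid markers, 1 of 3 NK markers and 4 of 4 markers of stroma and epithelium, and 2 of those 4, Col1a1 and Cdh1, had one in replicate 3 too. The part of these differences in the results below was not tested, so each library's value is given by itself.

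The promoters of 7 of the 8 genes were open in both libraries, and Slfn2 was the exception. Promoters were taken as 1000 bp on each side of the start sites of coding transcripts. Over all 21827 protein-coding genes, 40.9% had a promoter peak in both stricter lists. The share with one in replicate 2 was 50.5%, and the share with one in replicate 3 was 40.9%. Each library by itself gave the same 7 of 8 genes. In the permissive lists the counts were 8 in replicate 2 and 7 in replicate 3. Expressed genes of all kinds tend to have open promoters, and no comparison with other cells was part of the study, so these counts describe the genes in this cell type alone.

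**Figure D1:**
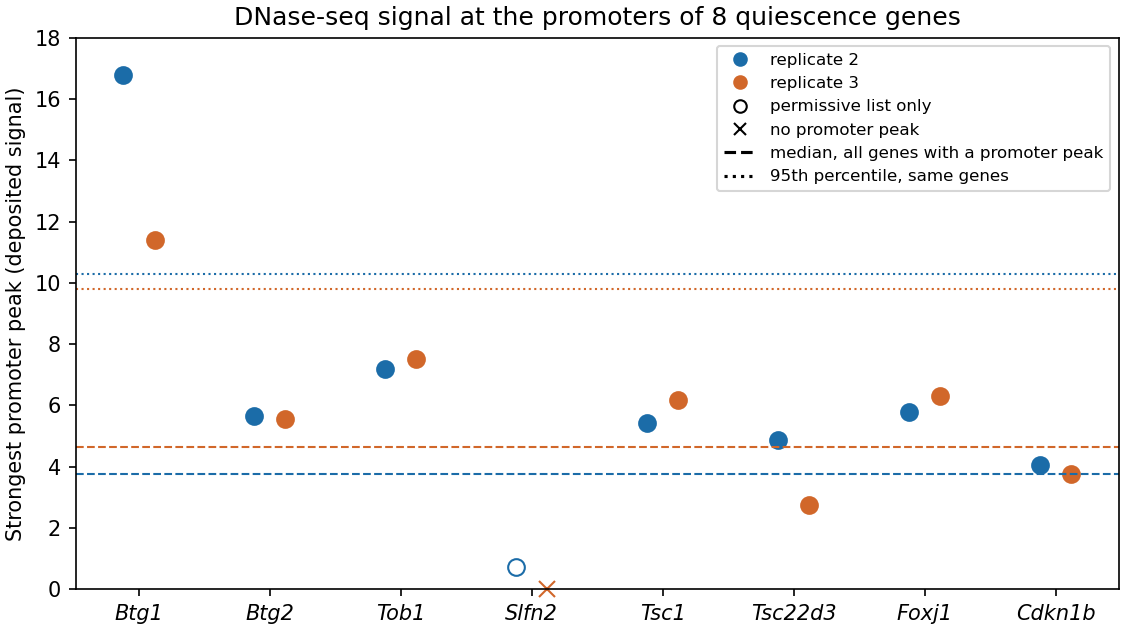
Strongest promoter peak of each gene, as deposited signal (y axis), in replicate 2 (blue) and replicate 3 (orange); filled points are stricter peaks, the open point a permissive peak, and the cross no peak. Dashed and dotted lines are the median and the 95th percentile over all genes with a promoter peak in that library. Btg1 lies above both upper lines, Tsc22d3 and Cdkn1b lie above the median in replicate 2 and below it in replicate 3, and Slfn2 has only a permissive peak of 0.724.

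One stretch of each promoter is printed here, because it holds footprints that the results below refer to. Other footprints of these promoters, such as several at Btg1 and Tsc1, lie outside the printed stretches, and bases in lower case lay in no footprint of replicate 2. Each runs 5′ to 3′ on the strand of the gene, ends before the start site, and comes from the GRCm38 (mm10) reference. That reference is B6-type, and the CAST-type allele was not considered. Capitals mark bases inside footprints of replicate 2, the deeper library. Each stretch spans the footprints of replicate 2 that overlap the 200 bp upstream of the start site, with up to 10 bases added at each end. For Btg1, Tob1, Tsc1 and Foxj1 it spans only those shared with replicate 3.
Btg1 promoter (chr10:96616831-96617000, plus strand): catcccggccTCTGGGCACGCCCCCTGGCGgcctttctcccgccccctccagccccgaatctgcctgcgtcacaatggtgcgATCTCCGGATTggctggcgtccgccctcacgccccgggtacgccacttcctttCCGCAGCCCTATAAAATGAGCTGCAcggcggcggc
Btg2 promoter (chr1:134079121-134079212, minus strand): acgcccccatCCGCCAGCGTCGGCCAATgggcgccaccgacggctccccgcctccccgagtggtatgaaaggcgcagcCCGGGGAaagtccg
Tob1 promoter (chr11:94211279-94211364, plus strand): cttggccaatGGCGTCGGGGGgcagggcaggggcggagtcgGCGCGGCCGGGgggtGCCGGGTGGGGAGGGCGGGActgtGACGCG
Slfn2 promoter (chr11:83064970-83065093, plus strand): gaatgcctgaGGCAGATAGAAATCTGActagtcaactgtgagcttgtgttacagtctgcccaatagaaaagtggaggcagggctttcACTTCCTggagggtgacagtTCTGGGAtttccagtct
Tsc1 promoter (chr2:28641008-28641060, plus strand): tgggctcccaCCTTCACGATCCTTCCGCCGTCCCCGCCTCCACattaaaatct
Tsc22d3 promoter (chrX:140543196-140543383, minus strand): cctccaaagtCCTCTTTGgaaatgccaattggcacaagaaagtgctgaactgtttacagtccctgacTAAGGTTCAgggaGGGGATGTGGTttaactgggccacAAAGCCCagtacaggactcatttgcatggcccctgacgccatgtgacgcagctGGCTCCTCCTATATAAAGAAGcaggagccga
Foxj1 promoter (chr11:116335406-116335556, minus strand): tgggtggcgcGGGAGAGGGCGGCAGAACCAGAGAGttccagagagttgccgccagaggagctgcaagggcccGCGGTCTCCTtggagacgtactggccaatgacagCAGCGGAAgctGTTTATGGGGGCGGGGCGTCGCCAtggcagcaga
Cdkn1b promoter (chr6:134920345-134920377, plus strand): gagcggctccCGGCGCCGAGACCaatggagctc

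Btg1 encodes an antiproliferative adaptor that binds the CCR4-NOT complex, the main remover of poly(A) tails from messenger RNA, and in mice Btg1 and Btg2 together keep T cells quiescent. Its promoter on chromosome 10 was the most open of the 8. The strongest promoter peak reached 16.8 in replicate 2 and 11.4 in replicate 3, giving a mean of 14.1 ± 3.78 (SD, n = 2). It stood at position 13 of 11019 promoters in replicate 2 and 178 of 8924 in replicate 3. Both libraries thus placed it among the strongest promoters, although the signal in replicate 3 was 0.681 times that in replicate 2. Over the 8917 genes open in both libraries the log2 ratio of replicate 3 over replicate 2 had a median of 0.04 and an SD of 0.37, and the ratio of Btg1, -0.55, was at percentile 3.86.

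The open region of the Btg1 promoter, chr10:96616661-96617080, covered the start site of transcript Btg1-201 at 96617006 and untranslated exon sequence next to it. Replicate 2 had 3 footprints in the printed stretch and replicate 3 had 5. A TATA box, TATAAA, lay 31 to 26 bp upstream of the start site, whole inside a footprint of replicate 2 that ran from -40 to -16. In replicate 3 a footprint from -41 to -31 reached its first base, and another ran from -24 to -18. A CCAAT box, the sequence bound by NFY, lay on the opposite strand at -85 to -81. A footprint of replicate 2 from -93 to -83 covered 3 of its 5 bases. The overlapping footprint of replicate 3, from -92 to -86, ended next to the box and covered none of it. A second region found in both libraries lay at chr10:96618275-96618575 over coding and untranslated exon of Btg1, where replicate 2 had 2.26 and replicate 3 had 2.21. The other 3 regions of the locus had peaks in replicate 2 alone, with signals of 1.1, 2.08 and 2.11.

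Btg2, the closest relative of Btg1 and a target of p53, differed from it in having distal sites found in both libraries. Its promoter on chromosome 1 reached 5.64 in replicate 2 and 5.56 in replicate 3, giving a mean of 5.6 ± 0.0597 (SD, n = 2), at percentiles 69.7 and 62.1 of the promoters of each library. The locus held 8 regions, 4 of them in both libraries. Of those 4, 3 were distal, meaning that they overlapped no promoter window, and lay between genes. Over all protein-coding genes the median locus had 0 distal regions in both libraries, and 3 put Btg2 at percentile 98.0. With 10 kb of flank in place of 25 kb, the Btg2 locus kept 3 regions, and none of its distal regions found in both libraries was among them.

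The distal site upstream of Btg2, chr1:134093001-134093280, lay 14.0 kb from the start site. Its signal was 4.12 in replicate 2 and 5.6 in replicate 3, beside 5.64 and 5.56 at the promoter of Btg2. The site 18.1 kb downstream of the start site, chr1:134060881-134061140, had 4.82 in replicate 2 and 3.21 in replicate 3. The site 25.7 kb downstream, chr1:134053341-134053500, had 3.5 in replicate 2 and 3.25 in replicate 3. All 3 lay outside the transcribed part of the gene, and which gene any of them acts on cannot be read from these data. The stretches around their footprints are printed on the strand of Btg2, with footprints of replicate 2 in capitals.
Btg2 14.0 kb upstream (chr1:134093100-134093149, minus strand): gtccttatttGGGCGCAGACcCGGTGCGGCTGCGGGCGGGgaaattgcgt
Btg2 18.1 kb downstream (chr1:134060885-134061084, minus strand): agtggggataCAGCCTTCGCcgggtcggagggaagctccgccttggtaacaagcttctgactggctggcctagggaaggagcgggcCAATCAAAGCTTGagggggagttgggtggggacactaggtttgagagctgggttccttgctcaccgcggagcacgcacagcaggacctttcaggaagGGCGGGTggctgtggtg
Btg2 25.7 kb downstream (chr1:134053387-134053496, minus strand): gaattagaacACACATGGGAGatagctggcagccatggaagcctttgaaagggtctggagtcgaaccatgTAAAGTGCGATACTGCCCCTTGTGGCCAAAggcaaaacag

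At the upstream site 2 footprints of replicate 2 touched footprints of replicate 3, and one of them held a whole KLF/SP match, GGGCGGG. At 18.1 kb a TCF/LEF match, CTTTGAT on the opposite strand, lay whole inside a footprint of replicate 2, next to a CCAAT box on the strand of the gene that overlapped it by 2 bases. TCF/LEF factors are high mobility group proteins that naive T cells express strongly. Neither of the 2 footprints of replicate 3 at that site touched one of replicate 2. At the Btg2 promoter a CCAAT box lay whole inside a footprint of replicate 2 at -82 to -65, and replicate 3 had 1 footprint there, from -24 to -15, that did not overlap one of replicate 2.

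Tob1, the third member of the same family here and a transducer of antiproliferative signals, had the second strongest promoter. Its signal was 7.18 in replicate 2 and 7.5 in replicate 3, giving a mean of 7.34 ± 0.227 (SD, n = 2), at percentiles 81.8 and 82.6. The main region, chr11:94211141-94211540, covered the start site at 94211454 through its replicate 2 peak. The replicate 3 peak, chr11:94211181-94211420, ended upstream of that site. A second region in both libraries, chr11:94210221-94211040, extended the open stretch upstream with 2.07 in replicate 2 and 2.94 in replicate 3. The locus also held the one region of the 8 loci with a peak in replicate 3 alone, chr11:94211661-94211860 in untranslated exon, with a signal of 1.76. Its distal regions, 2 in number, had peaks in replicate 2 alone, at 0.903 and 1.65. All 5 footprints of replicate 3 in the Tob1 locus overlapped footprints of replicate 2. A TATA box of Tob1, past the end of the printed stretch, lay in a replicate 2 footprint from -56 to -37, and a KLF/SP match lay whole inside a replicate 2 footprint from -119 to -100 that overlapped one of replicate 3.

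Slfn2 stood apart from the other 7 genes. It belongs to the Schlafen family, and loss of its function in mice costs T cells their quiescence. No stricter peak lay in its promoter in either library. The permissive list of replicate 2 held a peak over the start site, chr11:83064935-83065200, with a signal of 0.724, and the lowest deposited false discovery rate in the promoter window was 0.00289. In replicate 3 no position of that window was listed at a false discovery rate of 0.05 or less. Around the gene, replicate 2 had 5 stricter regions, all distal, with signals of 2.34, 2.04, 0.925, 2.17 and 2.87, of which the one of 0.925 lay in an intron. None was a stricter peak in replicate 3. At 24.6 kb upstream and 14.8 kb downstream the permissive list of replicate 3 held peaks of 1.45 and 2.8.

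The whole Slfn2 locus showed the same difference between libraries. Positions with a false discovery rate of 0.05 or less made up 7.13% of the locus in replicate 2 and 0.2% in replicate 3, beside 0.736% and 0.293% of the genome. Replicate 2 had 32 footprints in the locus and replicate 3 had 0. Peaks of replicate 2 as strong as the 5 at Slfn2 would have been seen in replicate 3 in 2.81 cases by the share of the 200 distal peaks closest to each in signal, against 0 seen. Of the 6 T cell markers, 5 also lacked a stricter promoter peak in replicate 3, of which 2 had a permissive one, and whether this bears on the Slfn2 peaks was not tested. The Slfn2 promoter differed from most of the others in base composition too. Its ratio of observed to expected CpG was 0.11, at percentile 12.3 of all start sites, whose median was 0.563.

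Tsc1 encodes hamartin, which with Tsc2 forms the complex that keeps the GTPase Rheb, and so mTORC1, switched off, and mouse T cells without it lose quiescence. The gene on chromosome 2 had a single region in both libraries, its promoter at chr2:28640841-28641320. The signal was 5.41 in replicate 2 and 6.19 in replicate 3, giving a mean of 5.8 ± 0.551 (SD, n = 2), at percentiles 67.7 and 69.8. The replicate 2 peak covered the start site of Tsc1-201 at 28641237, and the replicate 3 peak, chr2:28640841-28641160, ended upstream of it. The remaining 4 regions of this locus of 99.9 kb had weak peaks, between 0.537 and 0.589, all in replicate 2, and 2 of them lay in promoters of neighbouring genes, Gfi1b, and Ak8 with Spaca9. No peak of either library lay at the start site of transcript Tsc1-204 at 28658567, inside the gene. The printed stretch holds 1 footprint of replicate 2 and 2 of replicate 3 that overlap it, and no match to any of the motifs searched.

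Tsc22d3 encodes GILZ, a leucine zipper protein induced by glucocorticoids and by FOXO factors. The gene lies on the X chromosome, of which the male cells hold 1 copy, and has 3 annotated start sites in coding transcripts, which differed in openness. The start site of Tsc22d3-201, at 140543187, reached 4.86 in replicate 2 and 2.76 in replicate 3, giving a mean of 3.81 ± 1.49 (SD, n = 2). The outermost start site, of Tsc22d3-203 at 140600659, had 1.22 in replicate 2 and 0.994 in replicate 3. No peak lay at that of Tsc22d3-204, at 140548338. Both libraries therefore gave the same order of the 3 start sites.

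Of the 7 promoters open in both libraries, that of Tsc22d3 differed most between them. Its log2 ratio of replicate 3 over replicate 2 was -0.82, at percentile 0.516 of the 8917 genes open in both. It stood at percentile 62.6 of the promoters of replicate 2 and 19.3 of those of replicate 3. In replicate 3 the locus had 2 footprints, 1 of them shared, against 36 in replicate 2. In the promoter of Tsc22d3-201 a TATA box lay at -28 to -23, whole inside a replicate 2 footprint from -39 to -19. A RUNX match, TGTGGTT, lay at -111 to -105 with 6 of its 7 bases inside another. A FOXO match, GTAAACA on the opposite strand, lay at -146 to -140 in no footprint of the deposited lists. These matches are descriptions of sequence, and no factor was measured.

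The other regions of Tsc22d3 found in both libraries clustered at the outermost start site. They were chrX:140600821-140601020, with 1.22 in replicate 2 and 0.949 in replicate 3, chrX:140600481-140600683, with 0.589 and 0.994 in the same order, and the intronic chrX:140599221-140599379, with 0.56 and 0.813. The intronic one, 1.4 kb downstream of that start site, was the one distal region of the gene in both libraries, and its signal was the lowest among all regions found in both over the 8 loci. The start sites of Tsc22d3 were poor in CpG, with ratios of observed to expected CpG of 0.276 for Tsc22d3-201, 0.188 for Tsc22d3-204 and 0.458 for Tsc22d3-203. Slfn2 and Tsc22d3 were thus the genes of the 8 whose main start site fell below the median of 0.563, and the main start sites of the other 6 lay between 0.812 and 1.04.

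Foxj1 encodes a forkhead factor best known as the master regulator of motile cilia, and mouse studies gave it a second role in T cells, where it restrains NF-kB and spontaneous activation. Its locus on chromosome 11 was the one in which all regions, 4 of 4, were found in both libraries. The promoter region chr11:116335361-116335540 had 5.79 in replicate 2 and 6.32 in replicate 3, giving a mean of 6.06 ± 0.378 (SD, n = 2), at percentiles 70.9 and 71.3. A weaker region just upstream, chr11:116335601-116335959, had 1.04 in replicate 2 and 1.81 in replicate 3. A region at chr11:116306661-116306920, with 3.79 in replicate 2 and 3.16 in replicate 3, lay in the promoter of Exoc7, an exocyst subunit gene. The last, chr11:116319081-116319280, lay between genes 16.2 kb downstream of the Foxj1 start site, with 4.04 in replicate 2 and 4.38 in replicate 3. The openness of a ciliary regulator's promoter says nothing of its transcript level, which was not measured.

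Footprints at Foxj1 lined up between the libraries in 5 of 7 cases. A KLF/SP match at -32 to -26 lay whole inside a footprint of both libraries, from -40 to -17 in replicate 2 and from -34 to -23 in replicate 3. The distal site held a match to the CTCF consensus, the sequence of an insulator protein, inside 1 wide footprint of each library. The stretch is printed on the strand of Foxj1 beside the other distal site with a CTCF match in a region of both libraries, that of Cdkn1b.
Foxj1 16.2 kb downstream (chr11:116319148-116319201, minus strand): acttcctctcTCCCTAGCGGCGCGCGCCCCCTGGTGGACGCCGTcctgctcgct
Cdkn1b 27.1 kb downstream (chr6:134947555-134947616, plus strand): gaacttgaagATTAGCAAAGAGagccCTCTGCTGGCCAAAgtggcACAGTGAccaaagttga

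Cdkn1b encodes p27Kip1, the inhibitor that binds cyclin E and Cdk2 complexes and blocks entry into S phase. Its promoter on chromosome 6 was the weakest of the 7 open promoters in replicate 2, and the weakest but for Tsc22d3 in replicate 3. The signal was 4.06 in replicate 2 and 3.75 in replicate 3, giving a mean of 3.9 ± 0.219 (SD, n = 2), at percentiles 53.8 and 36.0. It was CpG rich, with a ratio of observed to expected CpG of 1.04. The replicate 2 peak covered the annotated start sites at 134920401 and 134920513. The replicate 3 peak, chr6:134920421-134920501, lay between them and covered neither. Replicate 2 had a footprint from -46 to -34 that reached the first 2 bases of a CCAAT box, and replicate 3 had none in that stretch.

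Stronger than the promoter of Cdkn1b in both libraries was an open site inside its flank that belongs to another promoter. The region chr6:134897821-134898040, 22.5 kb upstream, had 8.44 in replicate 2 and 10.4 in replicate 3, and its neighbour chr6:134898061-134898600 had 2.82 and 3.03 in the same order. Both lay in the promoter window of Gpr19, an orphan receptor gene. The stronger one held a match to the NRF1 consensus, GCGCATGCG, inside a footprint of both libraries. Downstream, chr6:134947521-134947680, with 1.38 in replicate 2 and 2.08 in replicate 3, lay in an intron of the long noncoding RNA gene Lockd, 27.1 kb from the Cdkn1b start site. Lockd is known from mouse erythroid cells as a locus whose promoter acts as an enhancer of Cdkn1b. The open site here was intronic, and whether it has any such role was not tested. Its printed stretch has a CTCF match with 9 of its 12 bases inside a footprint of replicate 2, and the footprint of replicate 3 in that region lay elsewhere. The remaining 2 regions of the Cdkn1b locus had peaks in replicate 2 alone and lay between genes. They were 3.1 kb upstream, with 1.48, and 8.1 kb downstream at chr6:134928369-134928809, with 1.69.

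**Figure D2:**
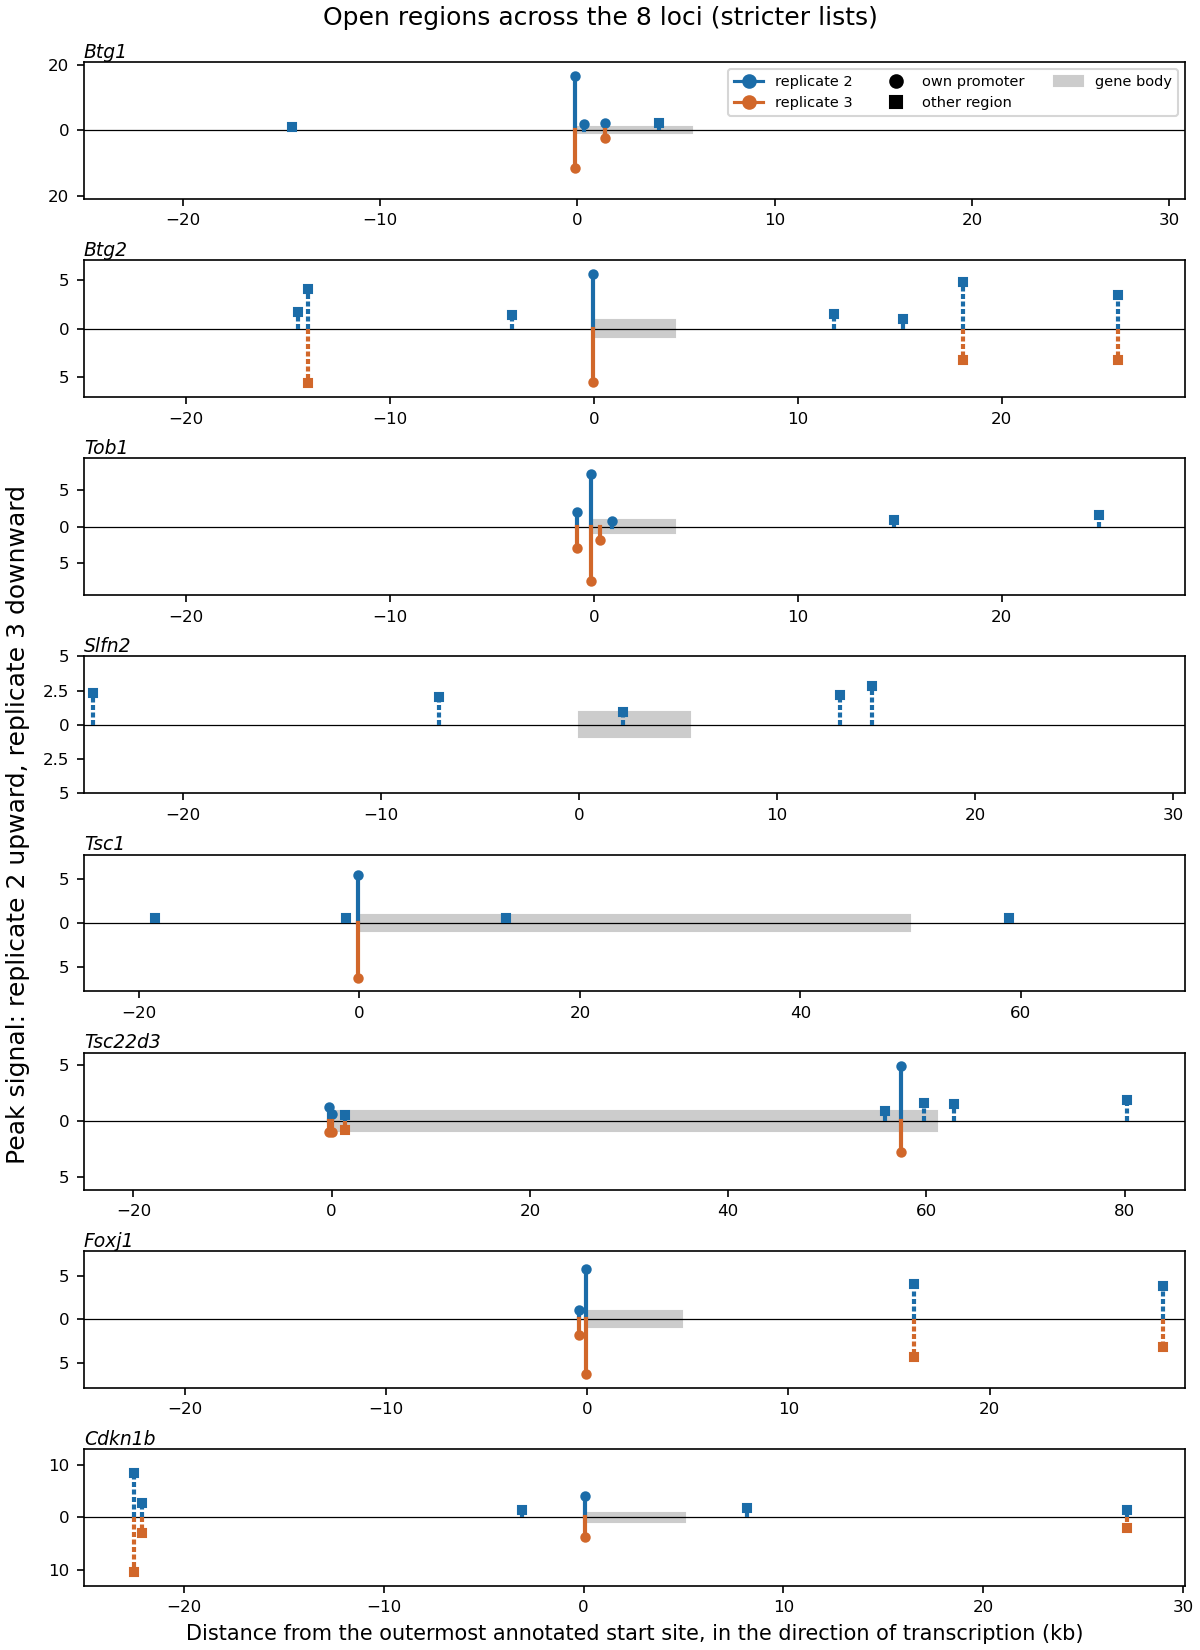
Open regions of the stricter lists across the 8 loci; x axis, distance in kb from the outermost annotated start site in the direction of transcription; y axis, deposited peak signal, upward for replicate 2 (blue) and downward for replicate 3 (orange). Circles are regions in a promoter window of the gene itself, squares all others, grey bars the gene bodies. Btg2, Foxj1, Cdkn1b and, weakly, Tsc22d3 have distal regions in both libraries. Squares also include promoters of other genes, such as Exoc7 at Foxj1 and Gpr19 at Cdkn1b. Slfn2 has no signal below the line.

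Counted together, the 8 loci held 47 open regions, of which 21 were found in both libraries, 25 in replicate 2 alone and 1 in replicate 3 alone. The loci held a median of 5.5 regions each, against 3 over the loci of all protein-coding genes. Promoters of the 8 genes themselves accounted for 15 regions, 12 of them in both libraries. Promoters of other genes accounted for 5, with 3 in both, and distal regions for 27, with 6 in both. The distal regions in both libraries belonged to 4 loci, those of Btg2, Tsc22d3, Foxj1 and Cdkn1b. Over all protein-coding genes, 31.5% of loci held one. Loci differ in length with the gene body, from 54.0 kb for Btg2 to 111.1 kb for Tsc22d3, so these counts are not corrected for length. Without the flank beyond 10 kb, 1 distal region in both libraries was left, the intronic one of Tsc22d3.

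Most promoter peaks of replicate 2 were found again in replicate 3, and most distal peaks were not. Of the 47 stricter peaks of replicate 2 in the 8 loci, 22 overlapped one of replicate 3 (46.8%, Wilson 95% interval 33.3 to 60.8), beside 42.5% of all stricter peaks of replicate 2. For peaks in promoter windows the count was 16 of 20 (80.0%, interval 58.4 to 91.9), and for distal peaks 6 of 27 (22.2%, interval 10.6 to 40.8). Over all peaks the shares were 59.6% in promoters and 29.7% for distal peaks. The intervals cover counting error only. By the 200 peaks of like signal and class, 13.3 promoter peaks and 12.1 distal peaks would have been seen, against 16 and 6. Slfn2, with 0 of 5 seen against 2.81, made the largest contribution to the distal shortfall.

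**Figure D3:**
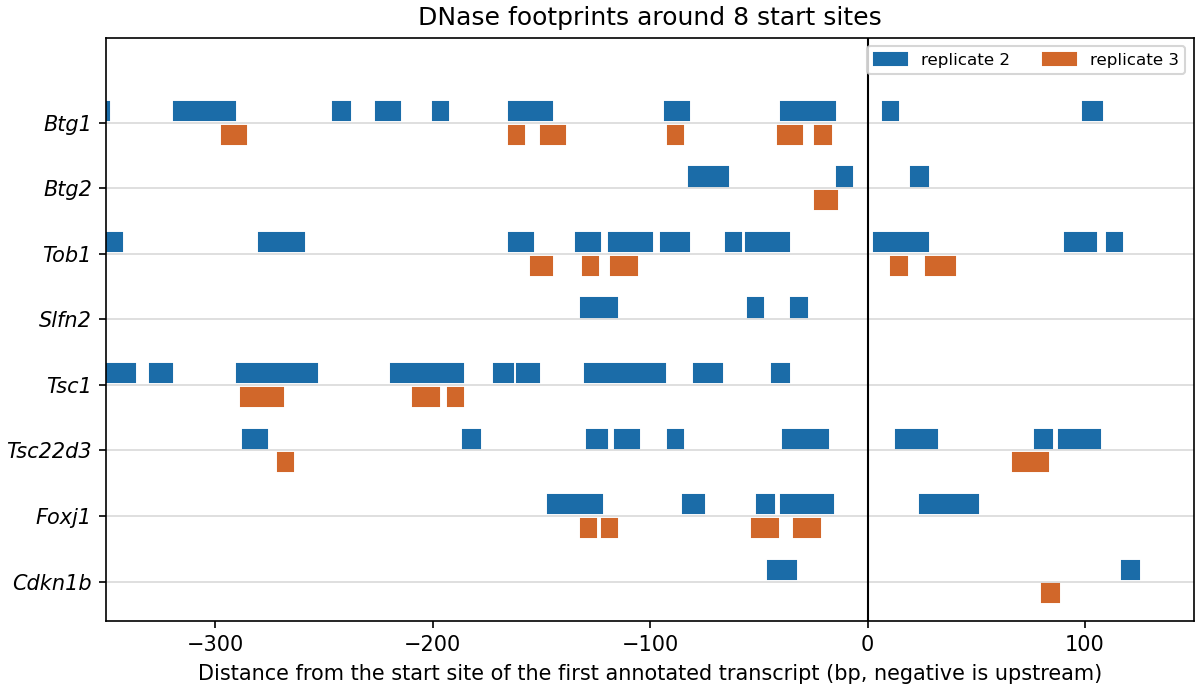
Footprints from 350 bp upstream to 150 bp downstream of the start site of the first annotated transcript of each gene (x axis, bp), replicate 2 in blue above each line and replicate 3 in orange below it. Blue and orange bars line up at Btg1, Tob1, Tsc1 and Foxj1 and, downstream of the start site, at Tsc22d3. Slfn2 has blue bars alone.

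Footprints in the 8 loci numbered 195 in replicate 2 and 36 in replicate 3. Of the 36, 27 overlapped a footprint of replicate 2 (75.0%, Wilson 95% interval 58.9 to 86.2), beside 66.9% of all footprints of replicate 3. Btg1 had all 6 of its replicate 3 footprints shared, Tob1 5 of 5, Tsc1 3 of 3 and Foxj1 5 of 7. At Btg2 4 of 8 were shared, at Cdkn1b 3 of 5 and at Tsc22d3 1 of 2. Footprints of replicate 2 lay inside its own stricter peaks in 138 of 195 cases. No share over all its footprints is given beside this count, so it cannot be read as high or low.

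Few footprints held a match to any of the motifs searched. Matches were searched on both strands in footprints with 5 bp added at each end. A CTCF match lay in 5 of the 195 footprints of replicate 2 (2.56%), beside 2.49% of all its footprints. A KLF/SP match lay in 9 (4.62%), beside 5.08%. A CCAAT match lay in 11 (5.64%), beside 2.52%, with neighbouring footprints counted separately where they shared a match. A TATAAA match lay in 3 (1.54%), one each at Btg1, Tob1 and Tsc22d3, beside 0.328%. RUNX matches lay in 2 (1.03%), at Btg1 and Tsc22d3, beside 0.651%. No footprint of the 8 loci held a FOXO, ETS, AP-1, E2F or STAT match. Among all footprints of replicate 2 these lay in 0.0896%, 0.572%, 0.266%, 0.172% and 0.3%, in the same order. With shares this low, finding none among 195 footprints says little.

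The same search over the promoter sequences themselves, from 250 bp upstream to 50 bp downstream of each start site, counted matches per gene. CCAAT was found in 7 of the 8 genes, all but Tsc1, and in 46.6% of all genes. TATAAA was found in 3, Btg1, Tob1 and Tsc22d3, and in 17.4% of all genes. GGGCGGG was found in 4, Btg1, Btg2, Tob1 and Foxj1, and in 38.8% of all genes. The FOXO match GTAAACA was found in 2, Btg1 and Tsc22d3, and in 4.7% of all genes, and no footprint of either library covered one. Genes with several start sites, such as Btg1 and Tsc1, had more sequence in which to match. A match is a description of letters, and its absence says only that these letters are not in this window.

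The partners of these proteins were next placed on the same scale, through 77 measured genes in 10 lists. In all, 58 of 77 (75.3%) had a promoter peak in both libraries, 11 in replicate 2 alone, 8 in neither and 0 in replicate 3 alone, beside the 40.9% of all genes given above. The CCR4-NOT complex, which BTG and TOB proteins recruit, had all 11 of its genes open in both libraries. Cnot9, a subunit that contacts RNA-binding adaptors, had 14.4 in replicate 2 and 15.4 in replicate 3. Cnot8, one of the deadenylase subunits, had 10.9 in replicate 2 and 10.7 in replicate 3, and Cnot4 and Cnot10 completed the 4 highest. In the BTG/TOB family itself Btg3 had 4.11 in replicate 2 and 4.34 in replicate 3, Tob2 had 3.24 and 3.03 in the same order, and Btg4, a gene of oocytes, had no promoter peak.

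The next list held partners and regulators of Tsc1 as well as genes of mTORC1, which Tsc1 restrains. All 10 genes of the TSC and mTORC1 list had a promoter peak in both libraries, though not all were strong. Deptor and Tsc2 were the lowest, at mean percentiles of 21.5 and 23.4. The 4 highest were Tbc1d7, the further subunit of the TSC complex, with 10.1 in replicate 2 and 9.98 in replicate 3, Akt1s1, Ddit4 and Mlst8. Ddit4, a stress-induced activator of the TSC complex, had 7.49 in replicate 2 and 8.22 in replicate 3. The relatives of Tsc22d3 were open in 3 of 3 cases, and Tsc22d2 was the highest of them, with 7.51 in replicate 2 and 8.0 in replicate 3.

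The Schlafen family, like Slfn2, had no stricter promoter peak in both libraries, but unlike Slfn2 some members had one in replicate 2. Of 7 other members, 0 had a stricter promoter peak in both libraries, 4 had one in replicate 2 alone and 3 had none, namely Slfn14, Slfn4 and Slfn9. Over all genes, 40.9% had one in both libraries and 50.5% in replicate 2. The 4 were Slfn1, Slfn3, Slfn5 and Slfn8, with signals in replicate 2 of 1.1, 1.51, 1.54 and 0.709. They are named because the whole family is small. In the permissive list of replicate 3, Slfn1, Slfn3, Slfn8 and Slfn9 had a promoter peak. Peaks this weak were often unseen in replicate 3. Of the 200 promoter peaks of replicate 2 closest in signal to 0.761, 1.22 and 1.45, 8.0%, 33.5% and 55.0% were seen there. The part of low signal in the absences was not tested. Several Schlafen genes are close relatives in sequence, and how uniquely tags map to them was not tested.

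Among cell cycle genes the CDK inhibitors and pocket proteins were open in 7 of 10 cases in both libraries. Cdkn2d, which encodes p19Ink4d, was the highest, with 11.8 in replicate 2 and 8.99 in replicate 3, followed by Rbl2, which encodes p130, the pocket protein of resting cells, with 5.74 in replicate 2 and 4.2 in replicate 3. Rbl1 and E2f4 completed the 4 highest. Cdkn2a had no promoter peak in either library. The genes that p27 acts on or that turn it over were open in 8 of 10 cases, with Ccne1, the cyclin that p27 inhibits, at 13.4 in replicate 2 and 13.8 in replicate 3. Ccna2, Cdk4 and Skp2, the receptor that marks p27 for destruction, were the next highest. Of the inhibitors in the list, Cdkn1c, Cdkn2b and Cdkn2d were open in both libraries and Cdkn1a and Cdkn2c in replicate 2 alone, as was the cyclin gene Ccnd2. These further genes are named after their values were seen.

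Other regulators of quiescence were open in both libraries in 9 of 11 cases. The exceptions, named after their values were seen, were Zfp36l1, with 6.65 in replicate 2, and Foxp1, with 1.36. In replicate 3 both had a promoter peak in the permissive list alone. Klf2, a transcription factor of circulating quiescent T cells, had 14.7 in replicate 2 and 13.6 in replicate 3. Bach2, a repressor of effector genes, had 6.13 in replicate 2 and 6.46 in replicate 3, and Peli1 and Zfp36 were close behind. The FOXJ and IkB list had 4 of 5, led by Nfkbie with 8.6 in replicate 2 and 10.6 in replicate 3, and with Nfkbia, Nfkbib and Foxj3 after it. Of the motile cilia genes, which Foxj1 controls or works beside in ciliated epithelium, 4 of 7 were open in both libraries, Rfx2, Rfx3, Ccno and Mcidas, the last at 1.38 in replicate 2 and 1.4 in replicate 3. Dnah5, Gmnc and Tekt1, the first a motor protein and the last a structural protein of cilia, had no promoter peak in either.

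**Figure D4:**
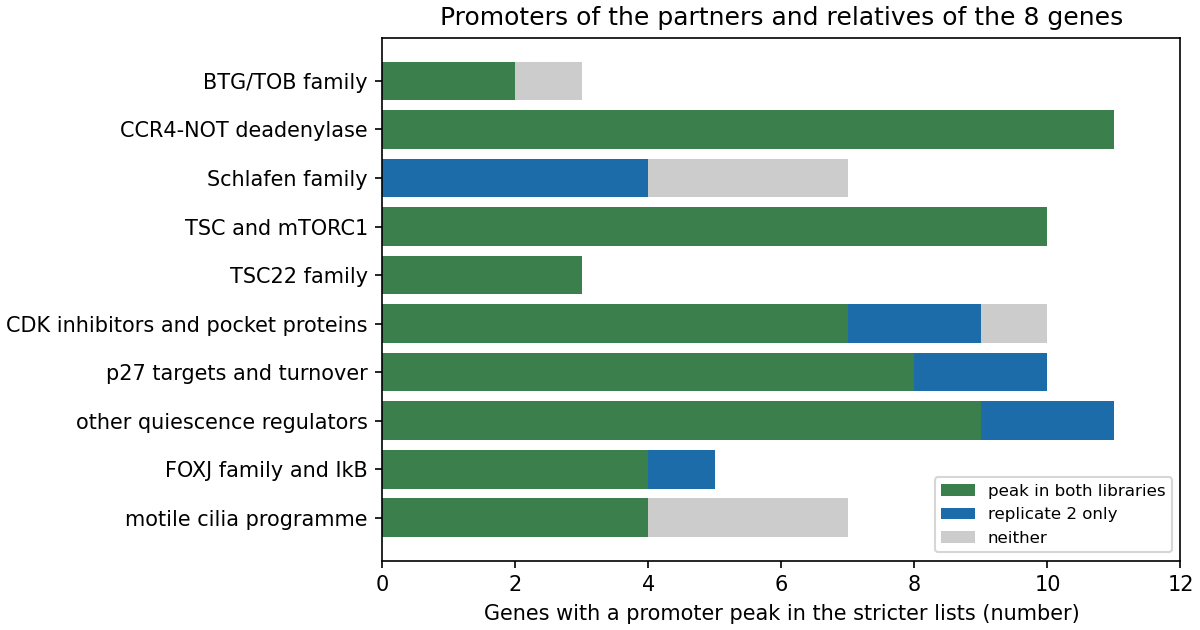
Number of genes (x axis) in each of the 10 lists of partners and relatives with a stricter promoter peak in both libraries (green), in replicate 2 alone (blue) or in neither (grey). The CCR4-NOT, TSC and mTORC1, and TSC22 bars are green throughout, and the Schlafen bar has no green.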

How the data were processed

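DNase-seq data of 2 libraries in 1 group were used. The authors deposited 2 peak lists per library, each peak with a signal value of unstated scaling, and 1 list of q-values (false discovery rates), none above 0.05. The deposited footprint lists carry a constant of 0.01 in their value column, so only intervals were used. Every list was made from its own library's alignments, per the deposited notes, on mm10, per the labels. No label names the aligner or callers (not given in the sources used here). Depth is known only through the step of the signal values (whole multiples within 0.05 of a step, below 2). The shorter peak list is called stricter, the longer permissive.

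Peaks overlapping by 1 bp or more were merged into regions across libraries, and a region in both libraries held a peak of each. A region lies in a locus when it overlaps it. Percentiles rank a gene's strongest promoter peak among all genes with one. Motifs were ETS CCGGAAGT, CRE TGACGTCA, KLF/SP GGGCGGG, KLF GT-box CCACACCC, NFY CCAAT, NRF1 GCGCATGCG, E-box CACGTG, RUNX TGTGGTT, FOXO GTAAACA, TCF/LEF CTTTGAT, AP-1 TGANTCA, E2F TTTCNCGC, STAT TTCNNNGAA, the TATA box TATAAA, YY1 CAAGATGGC, ISRE GAAACTGAA, and by name CTCF, p53 motif, glucocorticoid response element and NF-kB, 20 in all, and some can overlap. From each related list the genes named were up to 4 open in both libraries with the highest mean percentile and up to 3 with no peak. One gene of the lists was not matched to the annotation. The members and lists were chosen with earlier results of these data known. With 1 group there was no contrast and no test. The overlap and motif functions were tested on simulated data. Alternatives concerned peak lists, peak numbers, windows, flanks, overlaps, single libraries and footprints inside peaks. Software was pysam 0.24.0, scipy 1.17.1, pandas 2.3.3, numpy 2.4.6 and matplotlib 3.10.9 under Python 3.11.15.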

Additional observations from a re-analysis of the deposited data

How the results depend on the processing

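The number of the 8 genes open at the promoter in both libraries was 7 under each alternative run: permissive lists, as many replicate 2 peaks as replicate 3 has, promoter windows of 500 and 2000 bp, overlap of 50% of the shorter interval, and either library alone. The related genes ranged from 56 to 69 under the same alternatives except the overlap. The number of regions in the 8 loci, 47, was 71 with the permissive lists and 31 with a flank of 10 kb, and 24 to 46 with one library left out. Regions in both libraries, 21, fell to 13 with a flank of 10 kb. Distal regions in both, 6, were 1 with that flank, and 6 to 27 with one library left out. The share of replicate 2 peaks seen in replicate 3 ran from 37.1% to 54.8%, and the share of replicate 3 footprints that were shared from 61.1% to 82.6%. Both ranges lay within the interval of the main value. Those intervals are wide and the alternatives reuse many of the same peaks and footprints, so this is a weak check. Among single loci, Slfn2 had 0 regions without replicate 2, and Tsc1 had 1 when replicate 2 was held to its strongest peaks. Replicate 3 had fewer peaks and larger signal steps, and why sites had no peak in it was not tested. No paired analysis was possible because there is 1 group and no contrast.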
